A study of Mus musculus with 3 samples.

Results

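A set of 10 genes of lipid uptake, triglyceride synthesis and lipid droplets was followed in Ly6Chi monocytes sorted from the injured mouse liver: Cd36, Lpl, Fabp4, Fabp5, Gpat3, Dgat1, Dgat2, Plin2, Hilpda and Pnpla2. They were taken by symbol from the 53802 genes of the deposited matrices, and all 10 were found. The genes were selected on knockout-over-control differences already known from these libraries, so that contrast is given for them as a description. The knockout group was 1 library, numbered 4 in the labels, from LysMDCommd10 mice, in which Cre expressed from the lysozyme locus deletes the floxed Commd10 gene in myeloid cells. The control group was 2 libraries, numbered 1 and 3, from Commd10fl/fl mice, whose floxed gene is undeleted. All mice were C57BL/6 males of 8 weeks. After a 12 h fast each was injected intraperitoneally with acetaminophen at 300 mg/kg, chow was returned 2 h later, and the liver cells were sorted 24 h after the injection. The number of mice behind a library is not in the labels, so p-values below reflect the variation among 3 libraries, some of which may be technical.

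Macrophages take up fatty acids through the scavenger receptor CD36 and release them from lipoproteins with the secreted lipoprotein lipase LPL; the fatty acid binding proteins FABP4 and FABP5 carry them inside the cell. Surplus fatty acids are built into triglyceride by acyltransferases, of which GPAT3 starts the pathway and DGAT1 and DGAT2 end it, and the product is stored in droplets coated by perilipin 2 (PLIN2). The lipase ATGL, encoded by Pnpla2, empties the droplets. HILPDA, a small protein induced by hypoxia and by fatty acids, sits on droplets and inhibits ATGL. On GRCm38, in GENCODE M21, Hilpda lies at chr6:29272488-29275446 (plus strand), Plin2 at chr4:86648386-86670060 (minus), Gpat3 at chr5:100845713-100899102 (plus), Cd36 at chr5:17781690-17888801 (minus) and Lpl at chr8:68880491-68907448 (plus). Fabp4 (chr3:10204088-10208576, minus) and Fabp5 (chr3:10012548-10016607, plus) share a stretch of chromosome 3. Dgat1 lies at chr15:76502015-76511953 (minus), Dgat2 at chr7:99153658-99182719 (minus) and Pnpla2 at chr7:141455198-141460743 (plus). Of the 10, only Gpat3 overlaps other annotated genes, Gm42987 on its own strand and 4930458D05Rik on the other, and Fabp5 has a processed pseudogene, Fabp5l2, among the counted features, so the counts of these 2 genes may include or lose reads of a neighbour or copy.

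Promoter windows of RefSeq (GRCm38.p6, from 250 bases before to 50 bases after a start) were on hand for 5 of the 10 genes: Hilpda with 2 windows, Plin2, Gpat3, Pnpla2 and Cd36. The windows of the 2 genes with the largest knockout-over-control difference and of the main droplet coat gene are shown, since hypoxia-inducible factors bind elements with the core ACGTG or GCGTG. Capitals mark each match to ACGTG or GCGTG on either strand, where CACGT and CACGC are the same letters read on the opposite strand. The windows lie at chr6:29272376-29272675 (plus) for Hilpda, chr4:86670010-86670309 (minus) for Plin2 and chr5:100845979-100846278 (plus) for Gpat3.
Hilpda: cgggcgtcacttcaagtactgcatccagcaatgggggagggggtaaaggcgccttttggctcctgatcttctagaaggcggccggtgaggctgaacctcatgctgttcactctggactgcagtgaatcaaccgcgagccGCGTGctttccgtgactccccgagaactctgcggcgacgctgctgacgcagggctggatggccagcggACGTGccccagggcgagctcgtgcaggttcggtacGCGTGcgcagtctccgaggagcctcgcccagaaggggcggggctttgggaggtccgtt
Plin2: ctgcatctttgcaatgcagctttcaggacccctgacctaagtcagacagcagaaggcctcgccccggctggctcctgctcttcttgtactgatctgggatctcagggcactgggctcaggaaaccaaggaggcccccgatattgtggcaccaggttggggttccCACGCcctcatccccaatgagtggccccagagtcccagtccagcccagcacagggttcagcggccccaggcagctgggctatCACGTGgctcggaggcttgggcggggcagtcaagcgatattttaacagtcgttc
Gpat3: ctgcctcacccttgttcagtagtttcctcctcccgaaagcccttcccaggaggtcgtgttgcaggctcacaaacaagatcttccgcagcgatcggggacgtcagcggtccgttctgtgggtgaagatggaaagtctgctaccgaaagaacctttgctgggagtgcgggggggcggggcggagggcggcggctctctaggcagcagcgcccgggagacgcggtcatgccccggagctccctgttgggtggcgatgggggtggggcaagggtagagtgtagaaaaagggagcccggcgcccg
The Hilpda window shown held 1 ACGTG and 2 GCGTG; the other Hilpda window, chr6:29272238-29272537, overlaps it and held 1 GCGTG and no ACGTG, and the window with more matches was chosen for print. The Plin2 window held a CACGTG, which counts as ACGTG on each strand, and 1 GCGTG on the opposite strand. The Gpat3, Pnpla2 and Cd36 windows held no match to either. The Gpat3 window and the Cd36 window, chr5:17835847-17836146 (minus), lie inside the annotated genes, past their outermost starts. Sequence at those outer starts was not searched for these 2 genes. Such letters are common: 19.6% of 32851 mouse promoter windows of this length held ACGTG and 32.4% held GCGTG. A match is a description of the sequence and not a bound site.

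The deposited matrices held 30302932 UMIs in 5152 barcodes for knockout 4, 40092348 UMIs in 4814 barcodes for control 1 and 72867668 UMIs in 8109 barcodes for control 3; a UMI (unique molecular identifier) counts 1 captured transcript. The filter on cells kept 4457, 4115 and 7449 of them, at 6865, 8770 and 8160 UMIs in the median cell. Pairs of libraries shared 8 to 26 cell barcodes. Monocyte markers (Ly6c2, Vcan, Chil3, Ccr2 and Plac8) were present in every library and summed to 7139 CPM in knockout 4, against 5432 CPM in control 1 and 7987 CPM in control 3, where CPM are UMIs per 1000000 UMIs of the cells summed. Commd10 stood at 8.43 CPM in knockout 4, against 17.6 and 10.3 CPM in controls 1 and 3; a 3′ tag may lie outside the deleted part, so this does not check the genotype. Lyz2, whose locus carries the Cre, stood at 6468 CPM in knockout 4, against 15350 and 11557 CPM in the controls. Cells were gated by marker UMIs per 10000 UMIs, in a fixed order, into patrolling, C1q macrophage, MHC class II high, S100a8 positive, monocyte and remaining cells ("other"). These 6 gates made up the 4430 knockout, 4083 and 7414 control monocyte-macrophage cells summed below. The C1q gate held 765 knockout cells (17.3%), against 833 (20.4%) and 1238 (16.7%) control cells, although the sort was for Ly6Chi monocytes.

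Among the genes of uptake and binding, Cd36 stood higher and Lpl lower in the knockout library than in the mean of the controls, whereas Fabp4 and Fabp5 lay close to them. Cd36 stood at 209 CPM in knockout 4, against 119 CPM in control 1 and 59.6 CPM in control 3, a log2 fold change of 1.28 ± 0.34 (SE; 1 knockout and 2 control libraries, as for every knockout value below). The knockout library was above both controls, but the controls themselves lay nearly as far apart: the difference was 0.87 against control 1 alone and 1.84 against control 3 alone. Lpl stood at 223 CPM in knockout 4, against 689 and 245 CPM in controls 1 and 3 (-1.01 ± 0.52). Control 1 was high and the other libraries were close together: the log2 difference was -1.57 against control 1 alone and -0.10 against control 3 alone. Fabp5 stood at 637 CPM in knockout 4, against 544 and 495 CPM in the controls (0.35 ± 0.15). Fabp4 was at 23.8 CPM in knockout 4, against 23.5 and 24.1 CPM (0.05 ± 0.16), so the knockout value lay between the controls.

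Among the synthesis and droplet genes, Hilpda and Gpat3 stood furthest above the controls. Hilpda stood at 136 CPM in knockout 4 (4042 UMIs), against 38.4 CPM (1511 UMIs) and 25.9 CPM (1869 UMIs) in controls 1 and 3, a log2 fold change of 2.14 ± 0.22. Gpat3, which adds the initial acyl chain to glycerol phosphate, stood at 27.4 CPM, against 7.99 and 8.15 CPM (1.81 ± 0.17). For each of them the knockout library was over 3 times the mean of the controls, and the controls lay close together for Gpat3 and less so for Hilpda. Plin2, the droplet coat, stood at 903 CPM, against 600 and 588 CPM (0.65 ± 0.15). Dgat2 stood at 24.7 CPM, against 11.2 and 16.5 CPM (0.87 ± 0.25), and Dgat1 at 15.4 CPM, against 12.0 and 11.04 CPM (0.48 ± 0.18). These 3 genes were above both controls by smaller margins. Pnpla2, the lipase gene, stood at 37.1 CPM, against 42.8 and 46.7 CPM (-0.22 ± 0.16), below both controls.

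**Figure D1:**
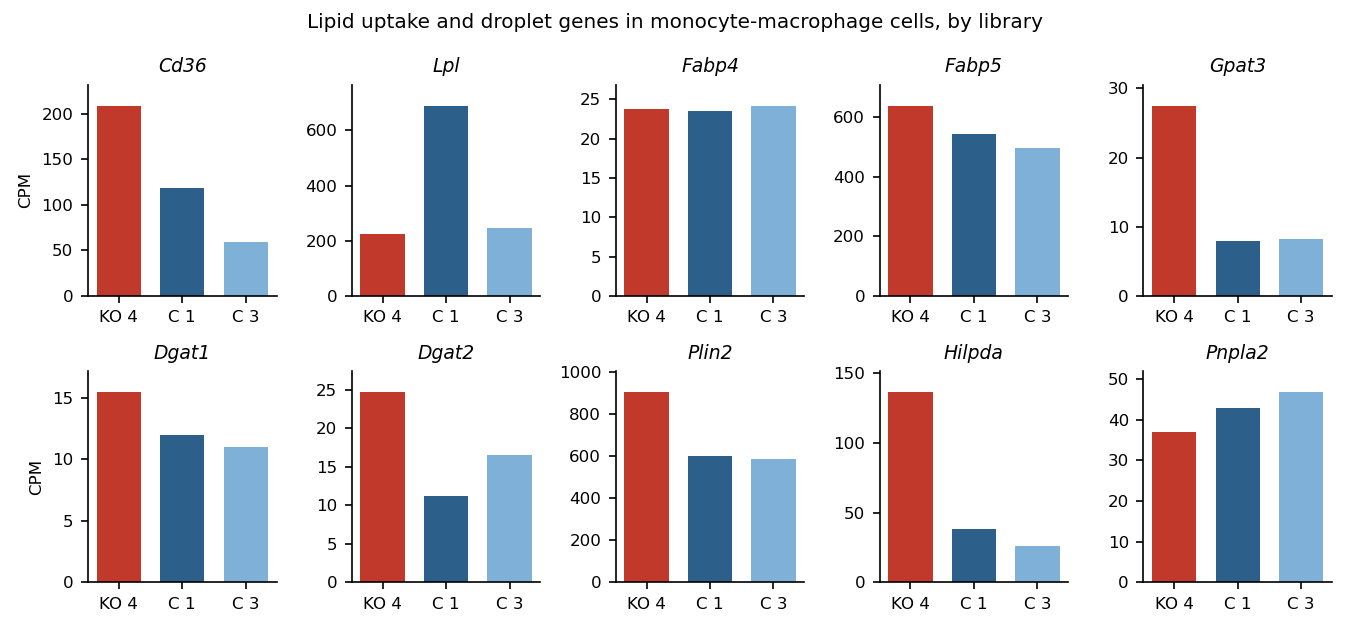
Level of each gene in CPM (vertical axis, from 0, scaled per gene) over monocyte-macrophage cells of knockout 4 (KO 4), control 1 (C 1) and control 3 (C 3); each bar is 1 library. Hilpda (136, against 38.4 and 25.9) and Gpat3 (27.4, against 7.99 and 8.15) stand apart in the knockout library, whereas Lpl stands apart in control 1 (689).

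Hilpda and Gpat3 passed the edgeR quasi-likelihood test at an adjusted p of 0.05, 2 of the 10 genes and both higher, beside 0.189% of all 14824 genes tested (0.162% higher and 0.027% lower). Both calls were lost without cells of over 2 times the median UMI count of their library, where edgeR called 5 genes in all and the log2 fold changes were 2.09 for Hilpda and 1.75 for Gpat3, and in the C1q gate alone neither gene was called. Above both controls lay 7 of the 10, and below both lay 2, beside 30.2% and 42.7% of all genes. Nothing is read from these counts, because the genes were listed with this contrast in view. No gene of the other lipid lists was called: 0 of 15 tested genes of triglyceride synthesis, 0 of 13 of droplet proteins and lipolysis, 0 of 15 of lipid uptake and binding, 0 of 15 of fatty acid oxidation, 0 of 11 of fatty acid synthesis and 0 of 11 regulators were called by edgeR. At an unadjusted p under 0.05 these counts were 2, 0, 3, 2, 0 and 1, and DESeq2 called 123 genes in all, against 28 with edgeR. Of 14 tested hypoxia-induced genes, 5 were higher in the knockout library: Egln3 (2.68 ± 0.18), Ero1l (1.74 ± 0.14), Bnip3 (1.74 ± 0.15), Slc2a1 (1.63 ± 0.18) and Ankrd37 (1.58 ± 0.15). Platelet markers summed to 377 CPM in knockout 4, against 168 and 131 CPM in the controls, and endothelial markers to 21.7 CPM, against 13.2 and 10.1 CPM; their part in these values was not tested. The median log2 fold change was 0.57 over the 10 lipid genes and 0.87 over the hypoxia-induced list, beside -0.01 over all genes. Both lists were chosen with earlier results of these libraries known. Nothing is therefore read from these medians or from the count of hypoxia-induced genes.

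Hilpda was also seen in a larger share of knockout cells. With every cell thinned to 3000 UMIs, Hilpda was seen in 20.03% of knockout cells (exact 95% interval 18.8 to 21.4), against 7.85% (6.99 to 8.78) and 6.13% (5.56 to 6.73) of control cells; intervals and floors cover counting error only. Unthinned shares were 28.2%, against 16.6% and 14.4%. Lymphocyte-gated cells, pooled over all libraries, are not known for storing lipid. They gave Hilpda in 7 of 66 cells (10.6%, 4.37 to 20.6) at a median of 2524 UMIs. The thinned shares in control cells did not exceed that share. In CPM, this pool held 32.6 for Hilpda, 65.1 for Pnpla2, 18.6 for Dgat1 and 18.6 for Dgat2. The controls did not clearly exceed these levels for any of the 4 genes, and the knockout library exceeded them clearly for Hilpda alone. The pool mixes knockout and control cells. In control 1 alone, 24 lymphocyte-gated cells held 1 Hilpda UMI (11.4 CPM), too few to set a floor per library. Gpat3 stood at 4.65 CPM in the pool, from 1 UMI, not far below its control levels. Plin2 (55.8), Fabp5 (74.5), Lpl (23.3) and Cd36 (9.31 CPM) lay far below the monocyte-macrophage levels, and Fabp4 was seen in 0 of 66 lymphocyte-gated cells. Thinning left out 757 knockout, 527 and 713 control cells for being too shallow.

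Cells with at least 10 Arg1 UMIs per 10000, called Arg1-high, held most of the Hilpda and Cd36 UMIs of the knockout library. Arg1, the arginase gene of repair macrophages, stood at 1517 CPM in knockout 4, against 364 and 128 CPM in the controls. Arg1-high cells numbered 1188 of 4430 (26.8%) in knockout 4, against 337 (8.25%) and 194 (2.62%) in controls 1 and 3. The cut is a point on a range: 334 of the 1188 knockout cells had under 20 Arg1 UMIs per 10000, and 298 further knockout cells had 5 or more but under 10. Arg1-high cells held 63.7% of the Hilpda UMIs of knockout 4, against 25.02% and 10.1% in the controls. For Cd36 these shares were 63.6%, against 26.8% and 17.5%, and for Plin2 44.0%, against 13.3% and 5.23%.

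Within either class of cells the knockout library still differed from the controls in Hilpda and Gpat3, and less so in Cd36. In Arg1-high cells Hilpda stood at 316 CPM in knockout 4, against 108 and 82.8 CPM in the controls. In the remaining cells it stood at 68.2 CPM, against 31.6 and 24.0 CPM. The knockout library was above both controls in each class, with log2 ratios to the mean of the controls of 1.73 and 1.29, against 2.08 in all monocyte-macrophage cells. This did not extend to every gate: in other cells that were not Arg1-high, Hilpda stood at 86.4 CPM in knockout 4, against 79.9 and 91.0 CPM in the controls. Gpat3 had ratios of 1.66 in Arg1-high and 1.46 in remaining cells. Cd36 had ratios of 0.49 and 0.52, against 1.23 in all monocyte-macrophage cells, and Plin2 0.62 and 0.28, against 0.60. Fabp4 differed in direction between the classes: it stood at 41.0 CPM in knockout Arg1-high cells, against 28.9 and 30.8 CPM in the controls, and at 17.3 CPM in the remaining knockout cells, against 23.0 and 23.9 CPM. Without Arg1-high cells the edgeR fit called 6 genes and none of the 10, with log2 fold changes of 1.33 for Hilpda, 1.49 for Gpat3, 0.56 for Cd36 and 0.31 for Plin2.

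**Figure D2:**
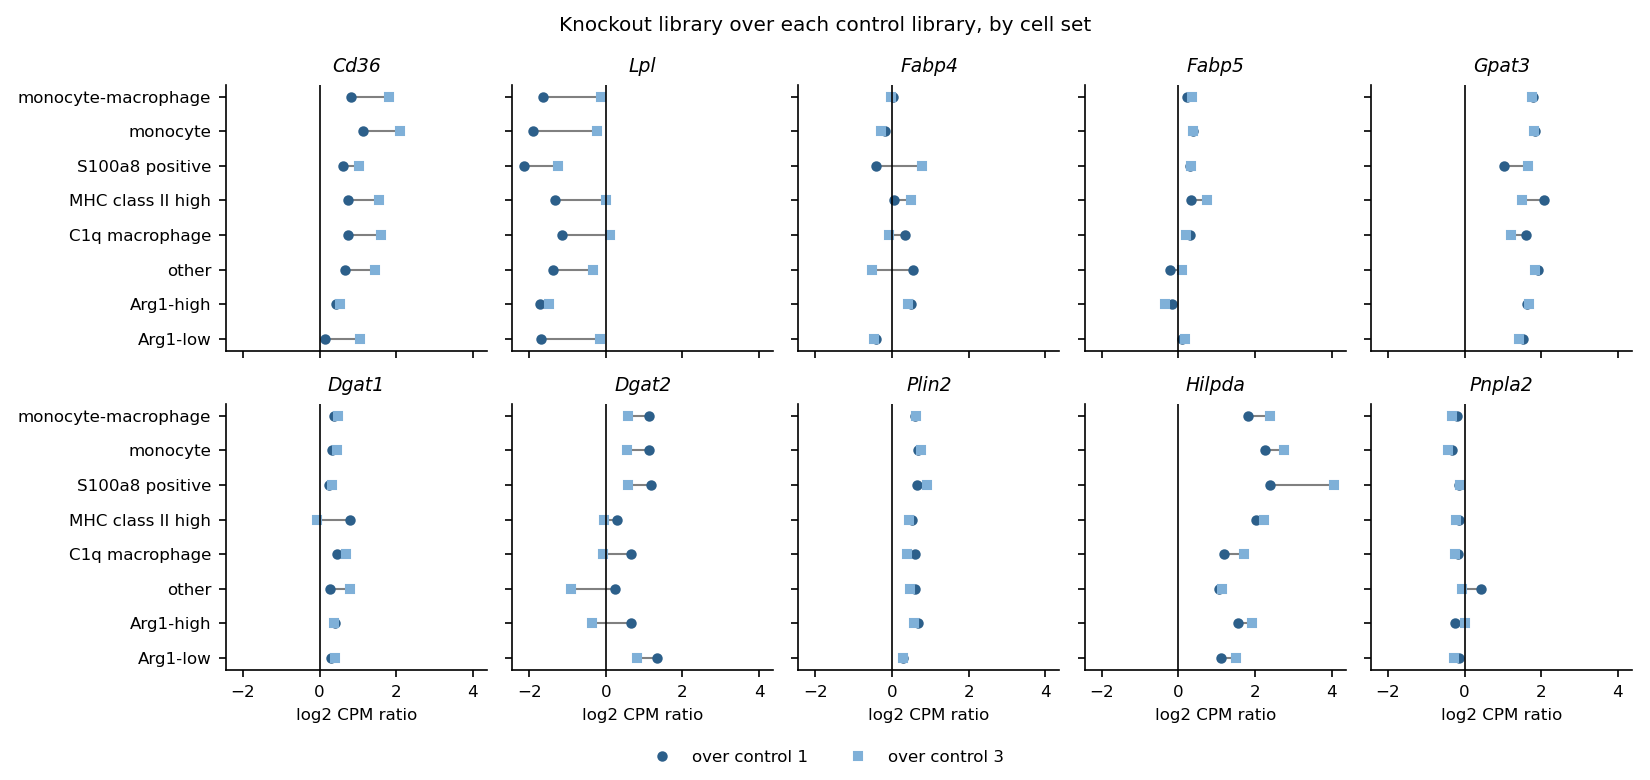
Log2 ratio of the CPM in knockout 4 to that in control 1 (circles) and in control 3 (squares) for each gene, with sets of cells down the page; the bar joins the 2 ratios and the vertical line marks no difference. Hilpda and Gpat3 lie right of the line in every set drawn, whereas Lpl lies further left against control 1 than against control 3 throughout.

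Gpat3 had a log2 ratio between 1.31 and 1.87 in the 5 gates with at least 4 UMIs in each library, the lowest in S100a8 positive and the highest in other cells. The Hilpda ratio varied more, from 1.09 in other cells and 1.43 in the C1q gate to 2.50 in the monocyte gate and 2.99 in S100a8 positive cells. The last value rests on 406 knockout UMIs and on 48 and 11 control UMIs. In the C1q gate Hilpda stood at 118 CPM in knockout 4, against 51.8 and 35.7 CPM in the controls; in the monocyte gate it stood at 149 CPM, against 30.9 and 22.0 CPM. The knockout library was the highest in both gates. The knockout effect on Hilpda was smaller in the C1q gate than in the monocyte gate by 1.08 ± 0.11 on the log2 scale in the edgeR interaction term. The knockout side of that term is 1 library and Hilpda was selected on the knockout contrast, so the value is a description of these libraries. Of the 10 genes it alone passed there, beside 0.212% of 13224 genes, and nothing is read from that. Cells of the 2 gates differed in Arg1 as well: 245 of 765 knockout C1q cells were Arg1-high, against 98 of 833 and 54 of 1238 control cells, and 675 of 2413 knockout monocyte-gate cells, against 170 of 2274 and 107 of 4705. In C1q-gate cells that were not Arg1-high, Hilpda stood at 53.6 CPM in knockout 4, against 43.1 and 34.4 CPM (log2 ratio 0.47). In monocyte-gate cells that were not Arg1-high, it stood at 76.3 CPM in knockout 4, and the log2 ratio was 1.70. In Arg1-high cells the log2 ratio was 1.53 in the C1q gate and 1.98 in the monocyte gate. The Hilpda ratio was thus smaller in the C1q gate in both classes of cells. The part of Arg1-high cells in the difference between gates was not tested.

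The 10 genes fell into separate orders over the gates. Other cells are those that reached no cut, and markers of other cell types were not summed in them. Over all control 3 monocyte-macrophage cells, stellate markers summed to 5.26 CPM (380 UMIs), against 1.41 CPM or less (at most 15 UMIs) in each gate but other. Most stellate UMIs of control 3 thus lay in its other cells. In control 1 and knockout 4 they summed to 0.38 and 0.27 CPM over all such cells. Their part in the levels of other cells was not tested. Cd36, Plin2 and Fabp5 were highest in other cells and next highest in the C1q gate in each of the 3 libraries. Fabp5 averaged 1211 ± 138 CPM in other cells and 743 ± 78.4 CPM in the C1q gate (SD, n = 3 libraries), ranges that did not overlap; those of Cd36 and Plin2 overlapped between libraries. Lpl was highest in other cells or the C1q gate in every library and lowest or next to lowest in S100a8 positive cells. Hilpda was highest in other cells (217 CPM in knockout 4, 104 and 99.4 CPM in controls 1 and 3), and the order of the 4 gates behind it changed from library to library. Gpat3, Dgat1 and Dgat2 were at the opposite end: S100a8 positive cells ranked first for Gpat3 and Dgat1 in each library and for Dgat2 first or next to first. Dgat2 averaged 37.8 ± 15.1 CPM there, 8.52 ± 2.19 CPM in the C1q gate and 3.32 ± 1.47 CPM in other cells. Pnpla2 varied least, with gate means from 37.0 to 47.9 CPM, and patrolling cells held the highest level in each library. Fabp4 was highest in other or patrolling cells and lowest in S100a8 positive cells (6.63 ± 2.61 CPM) in each library.

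**Figure D3:**
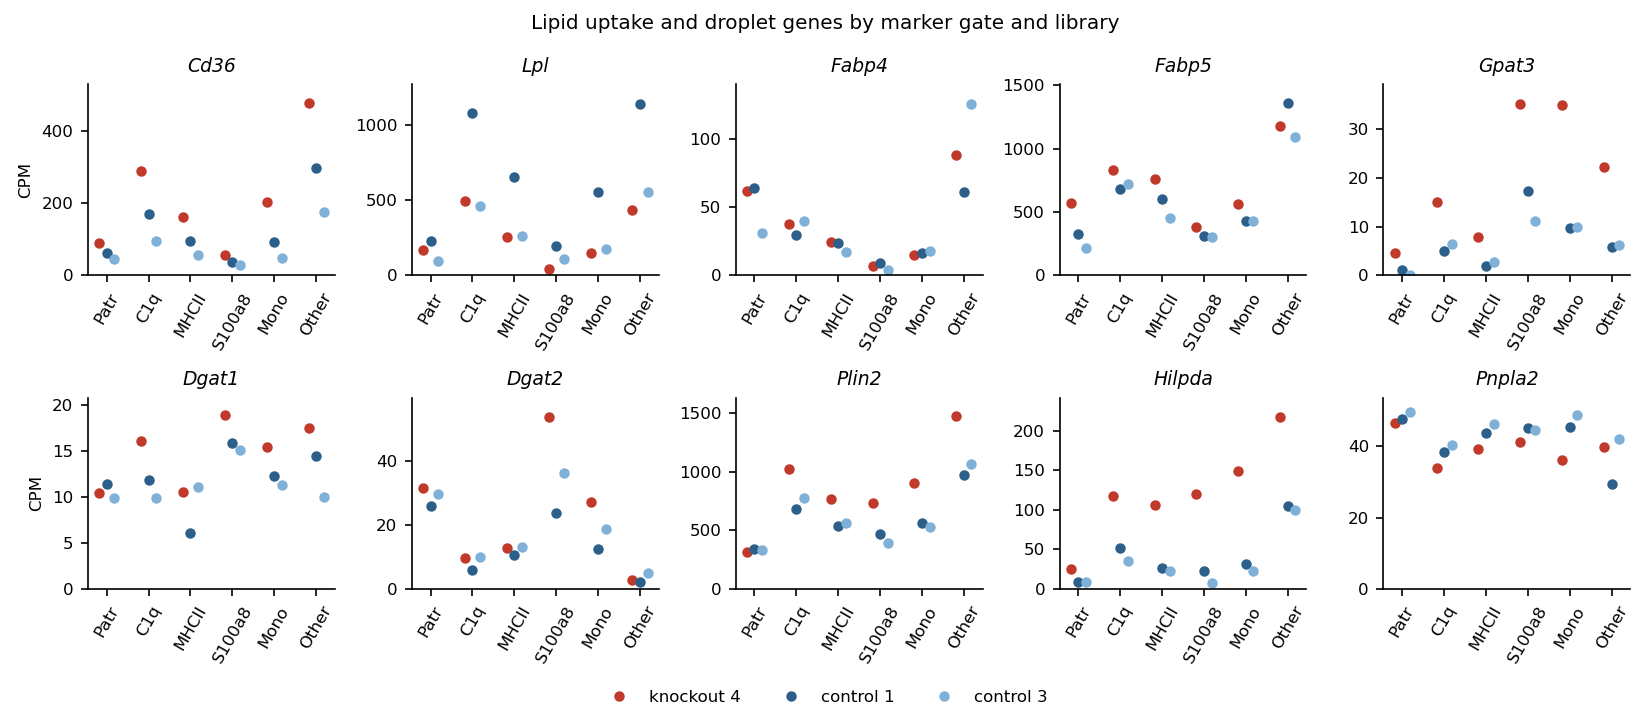
CPM of each gene (vertical axis, from 0, scaled per gene) in 6 gates of cells, from patrolling (Patr) to remaining cells (Other); points are knockout 4, control 1 and control 3. Fabp5 and Plin2 peak in other cells in each library, whereas Dgat2 is highest in S100a8 positive or patrolling cells and lowest in other cells.

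To ask which genes went with macrophage features, the C1q gate was compared with the monocyte gate inside each library. In the C1q gate 5 of the 10 genes were higher and 3 lower, beside 15.7% and 15.1% of all 12651 genes tested (30.7% in either direction). The uptake and binding genes were all higher. Lpl stood at 492, 1079 and 460 CPM in the C1q gate of knockout 4, control 1 and control 3, against 149, 555 and 175 CPM in their monocyte gates (log2 fold change 1.35 ± 0.10, edgeR adjusted p = 3.3e-07). Control 1 was the highest library in each gate, and in every library the C1q value was the higher. Fabp4 (1.10 ± 0.09), Cd36 (0.79 ± 0.08) and Fabp5 (0.66 ± 0.05) were higher too, as was Plin2 by a smaller amount (0.34 ± 0.06, edgeR adjusted p = 0.00105). The synthesis genes went the other way: Dgat2 stood at 9.55, 6.01 and 10.0 CPM in the C1q gate, against 27.2, 12.5 and 18.7 CPM in the monocyte gate (-1.10 ± 0.12). Gpat3 was lower as well (-0.92 ± 0.13), and Dgat1 did not pass (-0.07 ± 0.10). Pnpla2 was lower by -0.21 ± 0.06 (edgeR adjusted p = 0.0225), a call that was lost without control 1 (adjusted p = 0.115) and without control 3 (0.232).

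Hilpda did not pass between these gates (0.32 ± 0.15, edgeR adjusted p = 0.143). It was higher in the C1q gate of both controls and lower in that of knockout 4, and without knockout 4 it passed at 0.72 (adjusted p = 4.86e-07). Markers of other cells moved with the gate. The 5 Kupffer cell markers summed to 11.1 to 16.1 CPM in the C1q gate, against 1.64 to 2.33 CPM in the monocyte gate, with Timd4 and Clec4f at or below 1.43 CPM everywhere. The 5 endothelial markers, of a cell type that also expresses Cd36 and Fabp4, summed to 13.8 to 27.1 CPM, against 8.49 to 20.4 CPM, and 4 of the 5 were higher in every library. The 5 platelet markers summed to 309 to 1025 CPM, against 73.7 to 248 CPM, nearly all of it Pf4, and the defining Itga2b, Gp9 and Treml1 were at or below 0.445 CPM in either gate. Their part in these results was not tested.

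Arg1-high cells held more of most of these transcripts than the other monocyte-macrophage cells of the same library. In them 7 of the 10 genes were higher and 1 lower, beside 8.93% and 9.85% of all 12671 genes tested (18.8% in either direction). The genes were selected on the knockout contrast, and Arg1-high cells were more frequent in knockout 4. The counts here and within single gates below are therefore not independent of that selection and are a description. Cd36 stood at 483, 359 and 331 CPM in Arg1-high cells of knockout 4, control 1 and control 3, against 105, 95.5 and 50.7 CPM in the remaining cells. The Arg1-high values were above all of the others, and the fold was 4.88 (log2 fold change 2.29 ± 0.12, edgeR adjusted p = 1.72e-06). Hilpda stood at 316, 108 and 82.8 CPM, against 68.2, 31.6 and 24.0 CPM (1.98 ± 0.11, edgeR adjusted p = 2.22e-06). It was higher in Arg1-high cells of every library, and those of the knockout library were the highest of all. Plin2 stood at 1447, 900 and 978 CPM, against 697, 571 and 576 CPM (0.85 ± 0.08), and the 2 classes did not overlap.

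Fabp5 was higher in Arg1-high cells by 1.05 ± 0.08 and Gpat3 by 1.01 ± 0.12. Lpl stood at 262, 859 and 734 CPM in Arg1-high cells, against 208, 672 and 229 CPM (0.80 ± 0.20, edgeR adjusted p = 0.0174). Every library had more Lpl in its Arg1-high cells, by a wide margin only in control 3, and the call was lost with DESeq2 (adjusted p = 0.200). Fabp4 was higher by 0.74 ± 0.18, a call that was lost without knockout 4 (0.33, adjusted p = 0.081). Dgat2 was the gene that was lower: it stood at 13.1, 8.29 and 16.7 CPM, against 29.0, 11.5 and 16.5 CPM (-0.64 ± 0.19, edgeR adjusted p = 0.0384). Control 3 showed no such difference, and without knockout 4 the call was lost (-0.23, adjusted p = 0.478). Dgat1 (0.30 ± 0.13) and Pnpla2 (-0.26 ± 0.10) did not pass, although Pnpla2 passed without knockout 4 (-0.33, adjusted p = 0.0453).

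**Figure D4:**
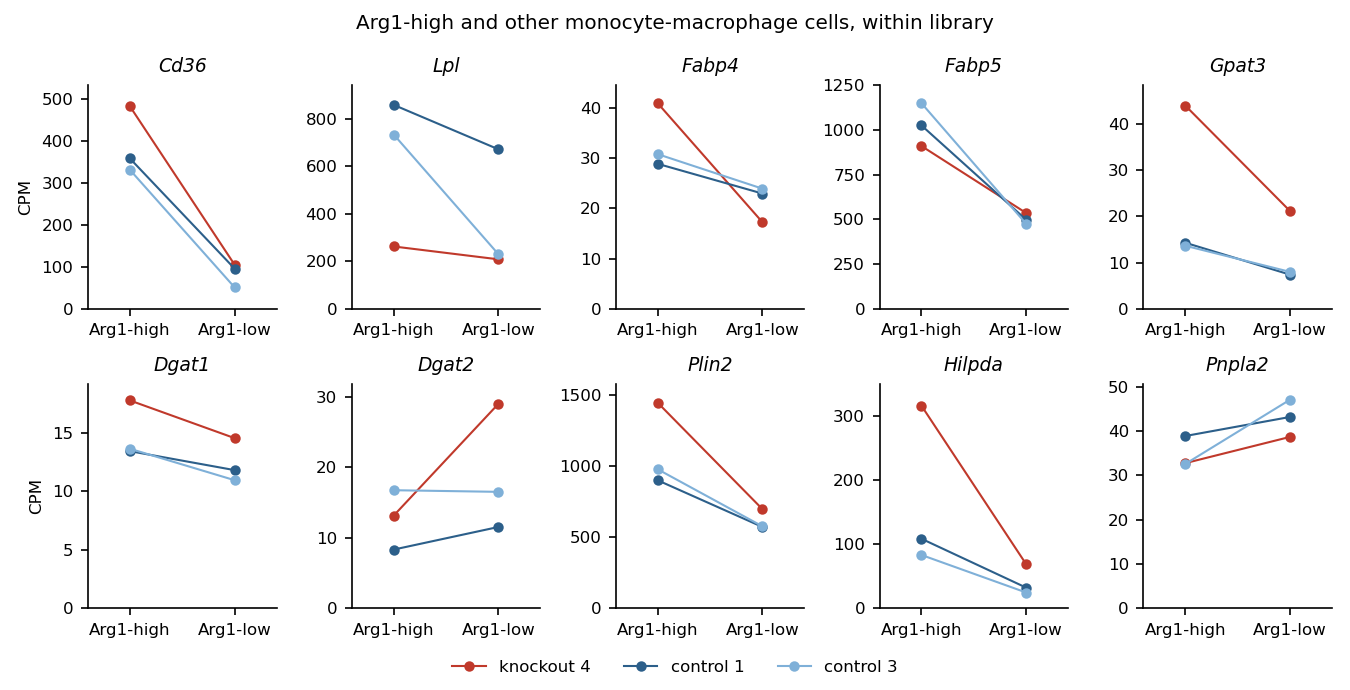
CPM of each gene (vertical axis, from 0, scaled per gene) in Arg1-high cells and in the other monocyte-macrophage cells (Arg1-low); lines join the 2 values of knockout 4, control 1 or control 3. Cd36, Hilpda, Plin2, Fabp5 and Gpat3 are higher in Arg1-high cells of all 3 libraries, whereas Dgat2 is lower there in knockout 4 and control 1.

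With cells of the C1q gate alone, 7 of the 10 genes were higher in Arg1-high cells and 1, Pnpla2, lower, beside 4.15% and 4.62% of 9724 genes tested. With the monocyte gate alone 6 were higher and 1, Dgat2, lower, beside 7.54% and 8.92% of 11530 genes. Fabp4 did not pass in the monocyte gate (0.39, edgeR adjusted p = 0.47). Platelet markers moved with Arg1 too, summing to 569 to 1057 CPM in Arg1-high cells, against 114 to 128 CPM in the others. Pf4 and Ppbp made up nearly all of the sum, and Itga2b, Gp9 and Treml1 were at or below 0.572 CPM in Arg1-high cells. Endothelial markers summed to 26.9 to 35.8 CPM, against 9.56 to 16.3 CPM. Only Pecam1 was higher in every library, and Cdh5 stayed at or below 1.59 CPM. Kupffer cell markers summed to 3.93, 2.57 and 1.76 CPM in Arg1-high cells of knockout 4, control 1 and control 3, against 3.72, 5.89 and 3.75 CPM in the others. The part of platelets and endothelial cells in these values was not tested.

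Cells were also split by whether a Hilpda UMI was seen after thinning to 3000 UMIs, leaving Hilpda itself out of the test. In Hilpda-detected cells 5 of the 9 other genes were higher and none was lower, beside 5.79% and 4.88% of all 10919 genes tested (10.7% in either direction). The genes were selected together with Hilpda on the knockout contrast, and Hilpda-detected cells were more frequent in knockout 4. These counts are therefore not independent of that selection and are a description. Cd36 stood at 355, 223 and 142 CPM in detected cells of knockout 4, control 1 and control 3, against 159, 95.4 and 50.95 CPM in undetected cells (1.33 ± 0.08, edgeR adjusted p = 7.93e-10). Plin2 stood at 1378, 961 and 916 CPM, against 766, 543 and 549 CPM (0.86 ± 0.05, edgeR adjusted p = 5.22e-10). Detected cells had more of both transcripts in every library. Fabp5 (0.76 ± 0.06), Gpat3 (1.18 ± 0.17) and Fabp4 (0.94 ± 0.21) were higher too. The Gpat3 call was lost without knockout 4 (1.00, adjusted p = 0.0681), and the Fabp4 call without control 3 (0.46, adjusted p = 0.199), where Fabp4 stood at 59.1 CPM in detected cells, against 19.4 CPM. Lpl did not pass (0.31 ± 0.11), but passed without knockout 4 (0.57, adjusted p = 7.17e-07), the only library in which detected cells had less of it, at 155 CPM, against 201 CPM. Dgat1 (0.43 ± 0.20), Dgat2 (0.06 ± 0.17) and Pnpla2 (-0.25 ± 0.13) did not pass. Without Arg1-high cells, the same 5 genes and Lpl were called. Platelet markers summed to 316 to 603 CPM in detected cells, against 108 to 240 CPM, mostly Pf4. Stellate markers summed to 0 to 125 CPM in detected cells, against 0 to 3.64 CPM in undetected cells. Control 3 held 380 stellate UMIs over its monocyte-macrophage cells, against 15 in control 1 and 8 in knockout 4. The part of platelets and stellate cells in these values was not tested.

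**Figure D5:**
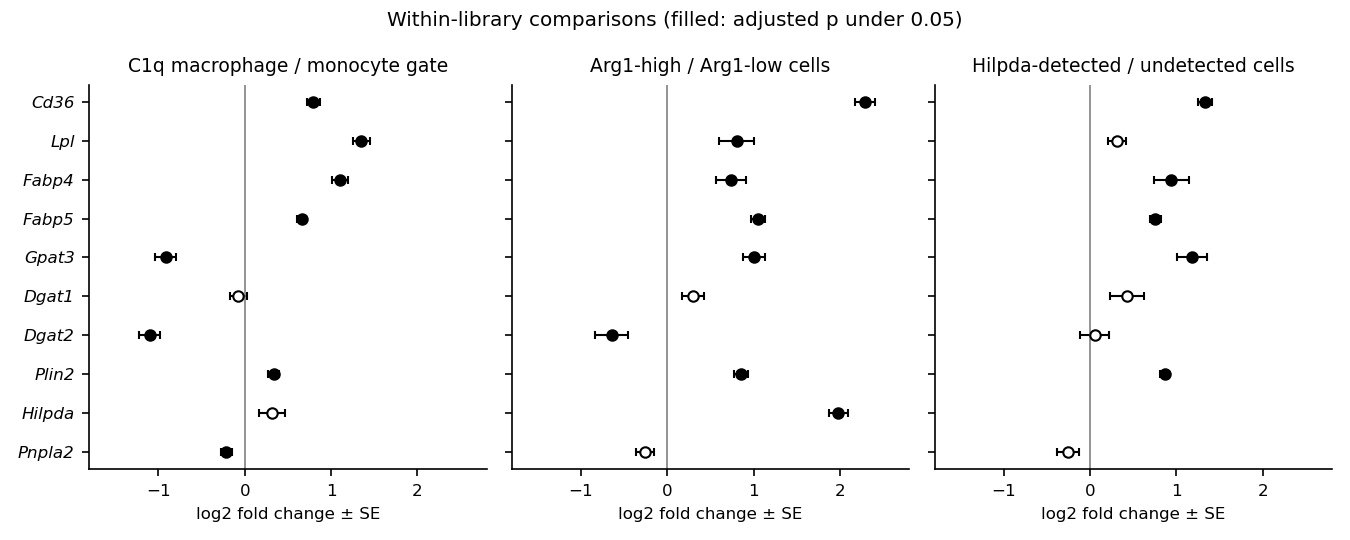
Log2 fold change with its standard error (horizontal axis) for each gene in the C1q gate over the monocyte gate, in Arg1-high over other cells, and in Hilpda-detected over undetected cells, from edgeR with library as a block (n = 3 libraries); filled points passed an adjusted p of 0.05. Cd36, Fabp4, Fabp5 and Plin2 are filled and right of 0 in all 3 panels, whereas Gpat3 is left of 0 in the C1q panel and right of 0 in the others.

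Other genes of lipid handling showed a mixed picture in the same comparisons. Beside their counts stand the shares of all genes called higher and lower. These were 15.7% and 15.1% in the C1q gate, 8.93% and 9.85% in Arg1-high cells, and 5.79% and 4.88% in Hilpda-detected cells. Of the list of lipid uptake and binding, 7 of 14 tested genes were higher in the C1q gate and 3 lower, 7 of 15 were higher in Arg1-high cells and 2 lower, and 5 of 13 were higher in Hilpda-detected cells and 2 lower. Angptl4, a secreted inhibitor of lipoprotein lipase, was higher in the C1q gate (1.76 ± 0.21) and in Arg1-high cells (1.402 ± 0.24). The fatty acid transporter gene Slc27a1 was higher in the same groups (0.87 ± 0.12 and 1.27 ± 0.16). The oxidized lipoprotein receptor gene Olr1 was higher in Arg1-high (0.75 ± 0.12) and Hilpda-detected cells (0.94 ± 0.17) and lower in the C1q gate (-0.53 ± 0.14).

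Of the droplet proteins and lipolysis genes, 1 of 10 tested was higher in the C1q gate and 4 lower, none was higher in Arg1-high cells and 4 lower, and none was higher in Hilpda-detected cells and 3 lower. G0s2, whose product inhibits ATGL as HILPDA does, was lower throughout, by -1.84 ± 0.24 in the C1q gate, -1.73 ± 0.18 in Arg1-high cells and -1.88 ± 0.37 in Hilpda-detected cells. Lipa, the lysosomal lipase gene, was higher in the C1q gate (0.63 ± 0.07). The hormone-sensitive lipase gene Lipe was lower in the C1q gate (-0.38 ± 0.09) and in Arg1-high cells (-0.54 ± 0.14), and the seipin gene Bscl2 was lower by -0.35 ± 0.06 and -0.40 ± 0.09. Of 14 tested genes of triglyceride synthesis, 3 were higher in the C1q gate and 1 lower, 2 higher in Arg1-high cells and 3 higher in Hilpda-detected cells, with none lower in these 2 comparisons. Soat1, which esterifies cholesterol for droplets, was higher in Arg1-high (0.27 ± 0.07) and Hilpda-detected cells (0.37 ± 0.07).

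Of the fatty acid oxidation genes, none was called higher and 4 of 14 tested were lower in the C1q gate, 2 in Arg1-high cells and 1 in Hilpda-detected cells, shares that lay near those of all genes called lower in the last 2 comparisons (9.85% and 4.88%). Lower in all 3 was Acaa2, the thiolase of the last step of mitochondrial beta-oxidation (-0.43 ± 0.06, -0.52 ± 0.13 and -0.49 ± 0.14). Of the fatty acid synthesis genes, 3 of 10 tested were higher in the C1q gate and 1 lower, 1 of 10 higher in Arg1-high cells and 1 lower, and 0 of 9 changed in Hilpda-detected cells in edgeR (1 at an unadjusted p under 0.05). Among the regulators, 4 of 11 were higher in the C1q gate and 3 lower, 3 of 11 were higher in Arg1-high cells and 2 of 10 in Hilpda-detected cells, with none lower in the last 2. Pparg, a nuclear receptor for fatty acids, was higher in the C1q gate (0.86 ± 0.09), in Arg1-high cells (0.36 ± 0.11) and in Hilpda-detected cells (0.38 ± 0.12). Hif1a, the oxygen-regulated factor gene, was lower in the C1q gate (-0.51 ± 0.07) and higher in Arg1-high (0.51 ± 0.08) and Hilpda-detected cells (0.52 ± 0.07). Of 14 tested hypoxia-induced genes, 1 was higher in the C1q gate and 5 lower. In Arg1-high and again in Hilpda-detected cells 11 were higher and 1, Ddit4, lower, beside 8.93% and 5.79% of all genes called higher. The list and the Arg1 gate were chosen with earlier results of these data known, and Hilpda is itself induced by hypoxia. Nothing is therefore read from these counts. Vegfa, for the endothelial growth factor, was higher by 1.55 ± 0.17 in Arg1-high and by 1.80 ± 0.12 in Hilpda-detected cells.

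The genes most like each of the 10 were sought over 18 sums (6 gates in 3 libraries), as Pearson correlations of log2(CPM + 1) among 5598 genes with a mean of at least 20 CPM; the sums share libraries and depth, and r is a description. Hilpda was most like the glycolysis gene Tpi1 (0.975), the hypoxia-induced Fam162a (0.975), the lactate dehydrogenase gene Ldha (0.972), Ube2n (0.963) and Bsg (0.957). Cd36 was most like Ftl1, for a ferritin chain (0.960), Abcc1 (0.946), Mif (0.941), F7 (0.936) and Cd9 (0.935). Fabp5 was most like Nr2c2ap (0.961), Ftl1 (0.960), Hsbp1 (0.955), Cd63 (0.941) and Prdx1 (0.938). Plin2 was most like Bzw1 (0.973), Gabarap (0.971), Sh3pxd2b (0.969), Cstb (0.968) and Il7r (0.958). Lpl was most like Tmem86a (0.959), Rcbtb2 (0.955), Cebpa (0.9496), Ddx18 (0.935) and Pum3 (0.932). Genes like Fabp4 included Psap (0.890), Mphosph8 (0.880), Plgrkt (0.880) and Nr1h3 (0.869). Pnpla2 had weaker likenesses, from 0.865 for Sowahc down to 0.844 for Fau, with Polb, Nfam1 and Orai2 between them. Gpat3, Dgat1 and Dgat2 had means under 20 CPM and were left out. Among the 10 themselves, Hilpda and Plin2 had an r of 0.91, Cd36 and Fabp5 0.89, and Dgat2 and Lpl -0.88.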

How the data were processed

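Transcripts of droplet-captured single cells were tagged with UMIs and read at their 3' ends. The deposited matrices hold raw counts of UMIs per gene and barcode, which the authors made with bcl2fastq and Cell Ranger 3.0.2 on GRCm38, per the submitters' processing notes; no column came from another series (0). The design text states 5229 cells for knockout 4, against 4860 and 8149 for controls 1 and 3; every deposited barcode had at least 500 UMIs, a limit whose origin the labels leave unstated. Barcodes with at least 500 genes and no more than 10% of UMIs from mitochondrial genes passed; no doublet caller was run and doublets were not removed.

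The 10 genes, the other lists and the Arg1 gate were chosen with earlier results of these data known. Cells went to the first gate whose marker UMIs per 10000 reached its cut: lymphocyte 20, neutrophil 20, patrolling 10, C1q macrophage 10, MHC class II high 50, S100a8 positive 20, monocyte 20, otherwise other; the first 2 were left out of monocyte-macrophage sums. Counts were summed per library and cell set (at least 50 cells), since cells are not replicates, and tested over all genes with edgeR 4.0.16 in R 4.3.3 (TMM, filterByExpr, quasi-likelihood, two-sided, Benjamini-Hochberg, adjusted p of 0.05). The library was a block in comparisons within libraries, where the 2 sums come from the same library. The knockout fit had 1 residual degree of freedom, so its spread rests on 2 control libraries and on all genes. Levels are CPM without TMM, and fold changes carry TMM.

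In simulated data the knockout fit, on 14514 genes, called 70% of genes changed by 1 and 100% of those changed by 2 on the log2 scale. The comparisons of cell groups within libraries called 100% of both, and the interaction term 96% and 100%. Changed genes had a mean of at least 20 CPM, and counts followed the spread that each fit had estimated. The shares do not cover genes of lower level, such as Gpat3, Dgat1 and Dgat2 in the knockout fit. Alternatives were library totals, no low-count filter, DESeq2 1.42.0, removal of cells over 2 times the median UMI count, thinning, a 5% mitochondrial limit, other gate cuts or cell sets, no library block, and each library left out. All 10 genes are named; of each other list, up to 4 genes past the threshold in a comparison, by size of change, with their values in the other comparisons where given. Some genes that this rule would name are not reported here. Of 53802 identifiers, 53620 (99.7%) were in GENCODE M21. Python 3.11.15, numpy 2.4.6, scipy 1.17.1 and pandas 2.3.3 were used.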

Additional observations from a re-analysis of the deposited data

Results flagged for a closer look

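The knockout effect on Hilpda differed between gates: it was smaller in the C1q gate than in the monocyte gate by -1.08 on the log2 scale, by the interaction term of the edgeR fit. The knockout side is 1 library, which every alternative setting shares, so neither the test nor the range over settings (-1.24 to -0.91) shows how the difference varies between knockout mice.

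Barcodes that the cell filter left out (695 in knockout 4, against 699 and 660 in controls 1 and 3) were used in no comparison. They held Hilpda at 123 CPM in knockout 4 (exact 95% Poisson interval 95.8 to 155), against 36.6 CPM (23.7 to 54.0) and 11.2 CPM (4.12 to 24.4) in the controls. Gpat3 stood at 82.9 CPM (61.1 to 109.9) in these knockout barcodes, against 17.6 CPM (9.07 to 30.7) and 13.1 CPM (5.27 to 27.0). The intervals cover counting error only, and with 1 knockout library there is no replicate check.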

How the results depend on the processing

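Of the alternative values for the knockout contrast of the 10 genes, 101 stayed within the control spread, 39 moved and no called value changed sign; uncalled Fabp4 ranged from -0.41 to 0.56 and Fabp5 from -0.15 to 0.44. The number of genes called in that contrast (28) became 453 without a low-count filter, 123 with DESeq2, 5 without cells of high UMI count, 66 at a mitochondrial limit of 5%, 6 without Arg1-high cells, 105 in the monocyte gate and, in an alternative chosen after seeing the data, 1107 in Arg1-high cells alone. No paired analysis was possible because the knockout and control libraries share no replicate number. For the C1q gate against the monocyte gate (3889) it became 2184 with DESeq2, 2282 with thinned cells, 375 with no replicate block, where only Fabp4 of the 10 was called, and 2470 to 3685 with a library left out. For Arg1-high cells (2380) it became 853 within the C1q gate and 512 with no replicate block (Cd36 and Fabp5 called). For Hilpda-detected cells (1165) it became 574 with DESeq2, 728 without Arg1-high cells, 1771 with unthinned counts (chosen after seeing the data) and 0 with no replicate block in edgeR, where 1239 genes had an unadjusted p under 0.05. For the difference between gates (28) it became 60 with library totals, 140 without a low-count filter, 18 with DESeq2, 11 without cells of high UMI count, and 135 or 17 with doubled or lowered gate cuts. Values near 0 changed sign: Dgat1 between the gates was 0.0728 with thinned cells and -0.122 to 0.00666 with a library left out, and Dgat2 in Hilpda-detected cells was -0.0176 with library totals, -0.148 with unthinned counts and -0.0200 to 0.116 with a library left out. The cause of these changes was not tested. With 1 knockout library, differences between mice and between genotypes cannot be told apart.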

Other observations

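Gpnmb is a gene of lipid-laden and scar-associated macrophages. Cells with at least 10 Gpnmb UMIs per 10000 numbered 235 (5.30%) in knockout 4, against 257 (6.29%) and 353 (4.76%) in controls 1 and 3. The median such cell held 4651 UMIs in knockout 4, against 8734 and 8179 in the controls. Compared with the remaining monocyte-macrophage cells of the same library, these cells held more Fabp5. It stood at 1913, 1513 and 1602 CPM in Gpnmb positive cells of knockout 4, control 1 and control 3, against 583, 489 and 450 CPM in the others. Fabp4 stood at 87.3, 52.6 and 126.9 CPM, against 21.1, 21.8 and 19.9 CPM, and Plin2 at 1562, 1090.2 and 1171 CPM, against 875, 573 and 564 CPM. Dgat2 was on the other side, at 6.65, 2.39 and 4.22 CPM in Gpnmb positive cells, against 25.4, 11.7 and 17.0 CPM. Hilpda, Cd36 and Lpl were higher in Gpnmb positive cells of each library too, but their ranges overlapped between libraries. Hilpda stood at 193, 119 and 75.2 CPM, against 134, 33.9 and 23.9 CPM. Gpat3 and Dgat1 differed in direction between libraries, and Pnpla2 was lower in each. The share of all genes with such differences was not counted, and the comparison was not tested.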
